A study of Mus musculus with 6 samples.

Results

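The 10 genes described here encode the fragile X protein family, its partners and other RNA-binding proteins that regulate translation near synapses. They are *Fmr1*, *Fxr1* and *Fxr2*, the FMRP partners *Cyfip1* and *Cyfip2*, the cytoplasmic polyadenylation element binding proteins *Cpeb3* and *Cpeb4*, the Staufen genes *Stau1* and *Stau2*, and the Pumilio gene *Pum2*. They were chosen by name from the 31053 genes listed in each library. All 10 were edited, meaning that they had a value above 0, in all 6 libraries.

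The data came from primary mouse cortical neurons in which a ribosomal protein carried an RNA editing enzyme (Ribo-STAMP). The 3 RPL10A-STAMP libraries expressed rAPOBEC1, a cytidine deaminase that changes C to U in RNA, fused to mouse RPL10A, and the 3 RPL22-STAMP libraries expressed rAPOBEC1 fused to mouse RPL22. Both partners are proteins of the large ribosomal subunit, and a transcript held by a tagged ribosome can acquire edits. The value of each gene is its edits per read (EPR), the number of C-to-U edits divided by the reads counted for that gene.

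The fusions also differed in orientation, with RPL10A joined to the C terminus of the enzyme and RPL22 to its N terminus. Partner and orientation cannot be told apart here. The stated culture conditions were the same for both groups. The neurons were taken from wild-type C57BL/6J embryos at embryonic day 18, treated with floxuridine at DIV 3 (day in vitro), infected with AAV carrying a Tet-On vector at DIV 6, induced for 48 h with 1 μg of Dox per ml, and harvested on DIV 14. In this vector the human synapsin promoter, active in neurons, drives the transactivator that Dox switches on, which directs the fusion to neurons. The study's methods call the 3 replicates biological and its text on correlation calls them technical, and the labels name no cultures or animals, so the p values below measure only the spread between these libraries. Where 3 values are given for a variant, they are those of replicates 1, 2 and 3 in that order.

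FMRP, the product of *Fmr1*, binds mRNAs in dendrites and at polyribosomes and represses their translation, and its loss causes fragile X syndrome. CYFIP1 binds FMRP and the cap-binding protein eIF4E, and both CYFIP proteins are also subunits of the WAVE complex, which drives branched actin assembly. CPEB proteins bind a U-rich element in 3′ untranslated regions (UTRs) and control poly(A) tail length and translation, Staufen proteins carry mRNAs into dendrites and take part in their decay, and Pumilio proteins bind UGUA elements in 3′ UTRs and recruit the CCR4-NOT deadenylase.

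Of the 10 genes, 2 differed between the variants. *Cpeb3* and *Pum2* had higher EPR with RPL10A-STAMP, by 3.20-fold and 2.47-fold after the libraries were put on a common scale (mean of 3 libraries over mean of 3). The other 8 genes did not pass the test, and their ratios on the same scale ran from 0.801 for *Cpeb4* to 2.02 for *Cyfip1*. Among all 8046 genes tested, 14.3% passed in either direction, 8.51% passed with higher EPR in RPL10A-STAMP and 5.77% with higher EPR in RPL22-STAMP. A share of 2 in 10 is near that background and says nothing particular about the set as a whole.

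The test was limma on log2(EPR + 0.01), on a common scale: the EPR of every library was divided by the median of that library, taken over the 8046 genes with edits in all 6, and then brought back to EPR units with the geometric mean of the medians. These medians ran from 0.0120 to 0.0161 with RPL10A-STAMP and from 0.00907 to 0.0129 with RPL22-STAMP, and between 9892 and 11195 genes were edited per library. The reads behind each value are unknown, so no counting error can be given. EPR is not an RNA level. In bulk libraries, fewer neurons carrying the fusion and fewer edits per neuron cannot be told apart. All 6 neuronal markers were edited in every library, with a summed EPR of 0.125 to 0.152 with RPL10A-STAMP and 0.108 to 0.142 with RPL22-STAMP. One of them, *Syn1* (synapsin I), was higher with RPL22-STAMP, at 0.0334 ± 0.00442 (SD, n = 3) against 0.0197 ± 0.00180 (SD, n = 3), with a log2 fold change of -0.82 (limma adjusted p = 0.00814). *Syn1* did not pass without scaling or in any setting that removed the trend of EPR with the GC content of transcripts. Of the 6 neuronal markers, 2 went the other way, *Map2* at 0.32 and *Slc17a7* at 0.04, and neither passed. Of the other markers, 3 of 4 for astrocytes, 1 of 4 for oligodendrocytes and 0 of 4 for microglia were edited in every library. The summed astrocyte EPR was 0.0996 to 0.131 with RPL10A-STAMP and 0.0825 to 0.138 with RPL22-STAMP. The neuronal and astrocyte sums cover 6 and 4 markers, so their sizes cannot be compared between cell types. The 3 astrocyte markers edited in every library exceeded the median of each library. The remaining astrocyte marker, with means of 0.00366 and 0.00280, did not. Of the neuronal markers, *Tubb3*, with means of 0.00551 and 0.00506, lay below the median of every library. *Rbfox3* lay below the median of every RPL10A-STAMP library. The remaining neuronal markers exceeded the median of each library. The oligodendrocyte sums ran from 0.00358 to 0.0886 and from 0.00360 to 0.0532, and the microglial sums from 0 to 0.0143 and from 0 to 0.0364. *Mog*, *Mag*, *Csf1r*, *Itgam* and *Aif1* were listed at 0 throughout. The part of non-neuronal cells in the values below was not tested.

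*Cpeb3* (ENSMUSG00000039652, chr19:37021291-37208601, minus strand, GRCm38) encodes a CPEB protein that can form prion-like aggregates and regulates synaptic mRNAs. The first 1000 bases of its 3′ UTR hold the CPEB element TTTTAT at 2 places, shown here in capitals with their surroundings because CPEB proteins are named for binding this element. The first lies in the 30-base window chr19:37024714-37024743 and the second in chr19:37023947-37023976, both read on the minus strand of GRCm38.
Cpeb3 element 1: agaaatgggtctTTTTATtattattattat
Cpeb3 element 2: gcatgcaataaaTTTTATatccaatgtcta

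The EPR of *Cpeb3* was 0.0390, 0.0536 and 0.0464 in the RPL10A-STAMP libraries against 0.0142, 0.0120 and 0.00579 in the RPL22-STAMP libraries. The variants did not overlap, since the lowest RPL10A-STAMP value, from replicate 1, was 0.0390 and the highest RPL22-STAMP value, also from replicate 1, was 0.0142. Mean EPR was 0.0464 ± 0.00730 (SD, n = 3) and 0.0107 ± 0.00437 (SD, n = 3), a ratio of 4.34 as deposited. A two-sided exact permutation test gave p = 0.10, below which 3 libraries against 3 cannot go. On the common scale with 0.01 added, the log2 fold change (positive where RPL10A-STAMP is higher) was 1.19 (standard error 0.22, 95% confidence interval 0.67 to 1.72, limma adjusted p = 0.0168). The added 0.01 makes log2 fold changes smaller, most of all for genes with low EPR. The value for *Cpeb3* is therefore smaller than its 3.20-fold ratio of scaled means implies, and it was 1.72 with 0.001 added. The limma values below hold the added 0.01 unless another setting is named. The fold change was positive in each of 17 other settings, and 12 of them kept the call. The adjusted p rose above 0.05 when an RPL10A-STAMP library was left out, at 0.0512 without replicate 1, 0.0604 without replicate 2 and 0.0558 without replicate 3 (limma).

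*Pum2* (ENSMUSG00000020594, chr12:8674134-8752581, plus strand) encodes a Pumilio repressor that acts on dendritic mRNAs. The first 1000 bases of its 3′ UTR hold the Pumilio motif TGTANATA at 2 places and TTTTAT at 1. The Pumilio motifs lie in the 30-base windows chr12:8750154-8750183 and chr12:8750407-8750436, and TTTTAT in the window chr12:8750198-8750227. They are shown, with the motif in capitals, because Pumilio and CPEB proteins are known to bind elements of these kinds.
Pum2 Pumilio motif 1: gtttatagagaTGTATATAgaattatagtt
Pum2 Pumilio motif 2: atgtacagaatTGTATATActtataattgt
Pum2 CPEB element: ttgtgtgaagccTTTTATaacagattaaca

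The EPR of *Pum2* was 0.0268, 0.0467 and 0.0555 in the RPL10A-STAMP libraries against 0.0128, 0.0144 and 0.0114 in the RPL22-STAMP libraries. The variants did not overlap, and the 3 RPL22-STAMP libraries lay much closer together than the 3 RPL10A-STAMP libraries, of which replicate 1 was lowest. Mean EPR was 0.0430 ± 0.0147 (SD, n = 3) and 0.0129 ± 0.00150 (SD, n = 3), a ratio of 3.34 as deposited (exact permutation test, two-sided, p = 0.10). The log2 fold change was 0.90 (standard error 0.17, 95% confidence interval 0.49 to 1.30, limma adjusted p = 0.0179). *Pum2* kept its direction in 17 of 17 other settings and its call in 8. It missed the threshold in limma with an adjusted p of 0.0675 without RPL10A-STAMP replicate 2, 0.0688 without RPL10A-STAMP replicate 3, 0.0511 without RPL22-STAMP replicate 2 and 0.0577 without RPL22-STAMP replicate 3. When the trend of EPR with the GC content of the transcript was taken out of every library, the log2 fold change of *Pum2* fell to 0.58 with an adjusted p of 0.0711 (limma).

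**Figure D1:**
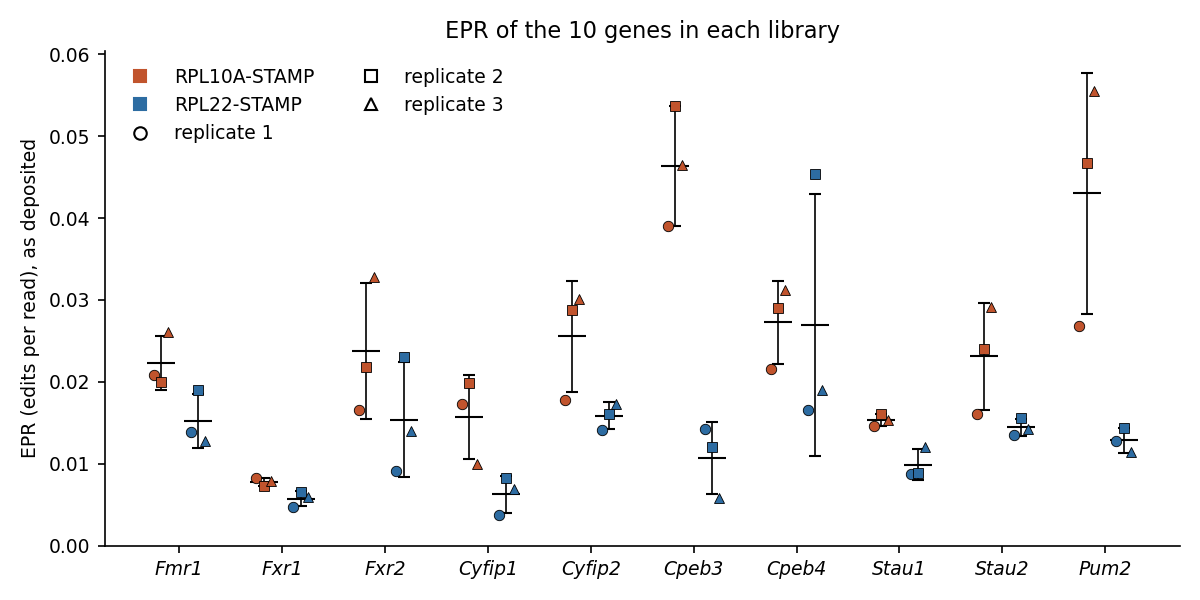
EPR of the 10 genes as deposited (y axis, edits per read, from 0) with RPL10A-STAMP (orange) and RPL22-STAMP (blue), with 1 point per library, shaped by replicate number, and bars for the mean ± SD of 3 libraries. The points of *Cpeb3* and *Pum2* are the farthest apart between the variants, whereas those of *Cpeb4* and *Fxr2* overlap.

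*Cpeb4* (ENSMUSG00000020300, chr11:31872211-31935634, plus strand), which encodes a CPEB protein of the same subgroup as CPEB3, had an EPR of 0.0216, 0.0290 and 0.0312 in the RPL10A-STAMP libraries against 0.0166, 0.0454 and 0.0190 in the RPL22-STAMP libraries. Its highest value of all came from RPL22-STAMP replicate 2, and its other 2 RPL22-STAMP values lay below all 3 with RPL10A-STAMP. Mean EPR was 0.0273 ± 0.00506 (SD, n = 3) and 0.0270 ± 0.0160 (SD, n = 3), and the log2 fold change was -0.19 (standard error 0.22, 95% confidence interval -0.71 to 0.34, limma adjusted p = 0.614). Without RPL22-STAMP replicate 2 it was 0.066, so the sign rests on that library.

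Within the libraries, *Cpeb3* and *Cpeb4* stood in opposite order with the 2 variants. The ratio of *Cpeb4* EPR to *Cpeb3* EPR does not depend on a factor common to a library, and it was 0.552, 0.541 and 0.672 in the RPL10A-STAMP libraries against 1.17, 3.77 and 3.28 in the RPL22-STAMP libraries. All 3 RPL10A-STAMP libraries had more edits per read on *Cpeb3*, and all 3 RPL22-STAMP libraries had more on *Cpeb4*. The mean log2 ratio was -0.77 ± 0.17 (SD, n = 3) and 1.28 ± 0.92 (SD, n = 3), a difference of -2.06. The exact permutation test gave p = 0.10, its smallest, and 0.50 after adjustment over 5 paralog ratios by the Benjamini-Hochberg method. The difference was -1.38 when a pseudocount of 0.01 was added to scaled EPR.

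*Fmr1* (ENSMUSG00000000838, chrX:68678541-68717963, plus strand) had an EPR of 0.0209, 0.0199 and 0.0261 in the RPL10A-STAMP libraries against 0.0138, 0.0190 and 0.0128 in the RPL22-STAMP libraries. All RPL10A-STAMP values were higher, but RPL10A-STAMP replicate 2 and RPL22-STAMP replicate 2 were nearly level. Mean EPR was 0.0223 ± 0.00333 (SD, n = 3) and 0.0152 ± 0.00331 (SD, n = 3), a ratio of 1.46. On the common scale the variants overlapped, with a log2 fold change of 0.11 (standard error 0.15, 95% confidence interval -0.23 to 0.45, limma adjusted p = 0.647). *Fmr1* transcripts are poor in G and C: the transcript with the longest coding sequence holds 36.9% GC, against a median of 48.9% over tested genes. With the GC trend removed, the difference of *Fmr1* between the variants came to -0.38 on the log2 scale with an adjusted p of 0.130 (limma), so the sign of the *Fmr1* difference turned with that setting. By root mean square difference of log2(scaled EPR + 0.01) over the 6 libraries, the 3 genes closest to *Fmr1* among 8045 were *Itgb1* (0.0731), *Map4* (0.0954) and *Snn* (0.102).

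The *Fmr1* paralogs *Fxr1* and *Fxr2* encode RNA-binding proteins that can pair with FMRP. *Fxr1* (ENSMUSG00000027680, chr3:34019943-34070322, plus strand) had an EPR of 0.00824, 0.00726 and 0.00794 in the RPL10A-STAMP libraries against 0.00473, 0.00660 and 0.00593 in the RPL22-STAMP libraries. It was the lowest of the 10 genes in all 3 RPL10A-STAMP libraries and in RPL22-STAMP replicate 2, and second lowest in the others. *Fxr2* (ENSMUSG00000018765, chr11:69632990-69653297, plus strand) ranged from 0.0166 to 0.0329 with RPL10A-STAMP and from 0.00913 to 0.0230 with RPL22-STAMP, and its libraries overlapped.

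The ratio of *Fxr1* EPR to *Fmr1* EPR lay between 0.304 and 0.462 in all 6 libraries, so *Fxr1* carried fewer edits per read than *Fmr1* in each of them. That of *Fxr2* to *Fmr1* lay between 0.659 and 1.26, on both sides of 1 with either variant. The log2 differences of these ratios between the variants were -0.11 (exact permutation p = 0.70) and 0.11 (exact permutation p = 0.60), each 0.875 after adjustment over the 5 ratios. With the GC trend removed from log2 EPR they were 0.38 and 1.51, neither tested. The limma log2 fold changes were 0.03 for *Fxr1* (95% confidence interval -0.25 to 0.31) and 0.18 for *Fxr2* (95% confidence interval -0.26 to 0.62), neither of which passed the test. The sign for *Fxr1* turned without RPL10A-STAMP replicate 1 (-0.041) and with the GC trend removed (-0.13).

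*Cyfip1* (ENSMUSG00000030447, chr7:55841745-55932602, plus strand) had an EPR of 0.0173, 0.0199 and 0.00993 in the RPL10A-STAMP libraries against 0.00376, 0.00821 and 0.00687 in the RPL22-STAMP libraries. All RPL10A-STAMP libraries were higher as deposited, and replicate 3 of that variant lay near the RPL22-STAMP libraries. Scaled, this library (0.00771) fell below RPL22-STAMP replicate 2 (0.00797), so the variants overlapped. The log2 fold change was 0.48 (standard error 0.20, 95% confidence interval 0.0079 to 0.95), with an unadjusted p of 0.0472 and an adjusted p of 0.156 (limma). An antisense gene, *Nipa2*, shares 11.0% of the exon bases of *Cyfip1*. The kit kept strand, but whether reads were counted by strand is not given in the sources used here.

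The 3′ UTR of *Cyfip1* holds 1 Pumilio motif, at chr7:55930720-55930749 on the plus strand, which is printed for comparison with the motifs of *Pum2*.
Cyfip1 Pumilio motif: ataaacatcccTGTACATAcccacatttca

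*Cyfip2* (ENSMUSG00000020340, chr11:46193850-46312859, minus strand) ranged from 0.0178 to 0.0301 with RPL10A-STAMP and from 0.0141 to 0.0174 with RPL22-STAMP. Its log2 fold change was 0.18 (limma adjusted p = 0.431). *Cyfip2* had more edits per read than *Cyfip1* in all 6 libraries. The ratio was 1.03, 1.45 and 3.03 in the RPL10A-STAMP libraries against 3.76, 1.96 and 2.53 in the RPL22-STAMP libraries, with overlap between the variants (exact permutation p = 0.30, adjusted 0.75). The log2 difference of this ratio was -0.68, against -0.30 with the pseudocount and -0.22 with the GC trend removed.

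Neither Staufen gene passed the test. *Stau1* (ENSMUSG00000039536, chr2:166947549-166996299, minus strand) had an EPR of 0.0146 to 0.0161 with RPL10A-STAMP and of 0.00872 to 0.0120 with RPL22-STAMP. *Stau2* (ENSMUSG00000025920, chr1:16228674-16520112, minus strand), the more brain-enriched of the pair, ranged from 0.0161 to 0.0292 and from 0.0135 to 0.0156. Neither overlapped between the variants as deposited, and both overlapped on the common scale, with log2 fold changes of 0.14 (95% confidence interval -0.20 to 0.48) and 0.16 (95% confidence interval -0.17 to 0.49). The ratio of *Stau2* to *Stau1* exceeded 1 in all 6 libraries and differed by -0.01 in log2 between the variants (exact permutation p = 1.0), or by -0.36 with the GC trend removed.

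**Figure D2:**
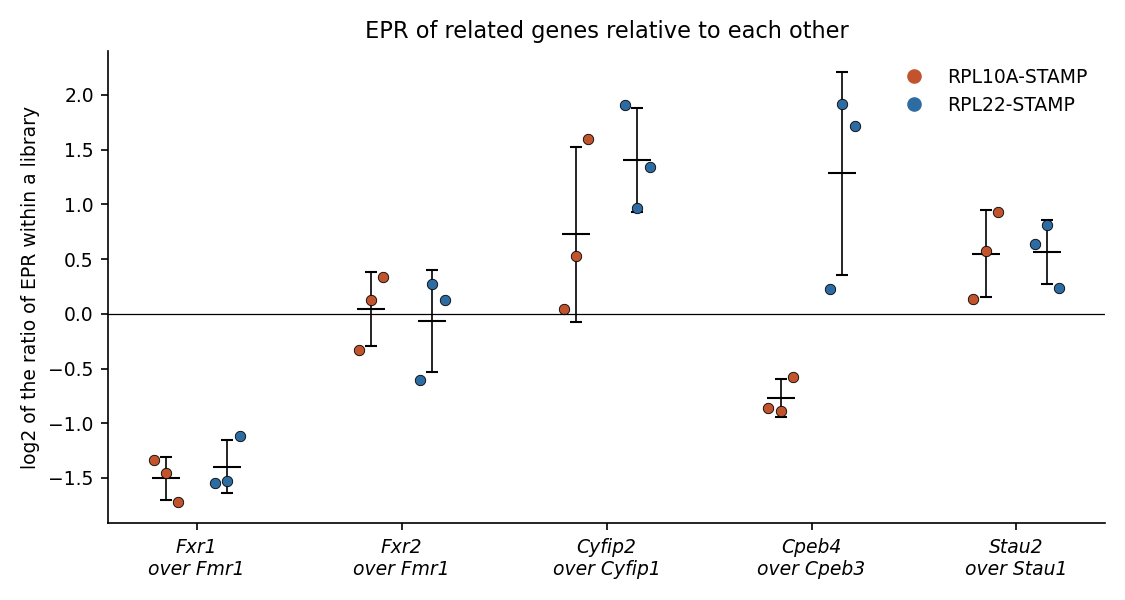
EPR of 1 paralog over the other within each library (y axis, log2) for 5 pairs, with 1 point per library, orange for RPL10A-STAMP and blue for RPL22-STAMP, and bars for the mean ± SD of 3 libraries. *Cpeb4* over *Cpeb3* is the pair in which the variants keep apart, with a log2 difference of -2.06.

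The scale decided how many of the 10 genes stood apart between the variants. As deposited, the mean EPR of all 10 was higher with RPL10A-STAMP, and in 8 of 10 the RPL10A-STAMP libraries all exceeded the RPL22-STAMP libraries. That holds for 28.2% of the 8046 tested genes, and the reverse for 6.21%. On the common scale it held for *Cpeb3* and *Pum2* alone, 2 of 10 against 20.0% of tested genes, with 17.1% in reverse. The median log2 fold change of the 10 was 0.17, with 9 positive, against -0.01 over all tested genes, of which 3921 were positive. Without scaling these medians were 0.42 and 0.18, all 10 were positive, and *Cpeb3* and *Pum2* passed, beside 13.5% of tested genes (11.9% higher with RPL10A-STAMP, 1.60% lower). With the GC trend removed *Cpeb3* alone passed, with a log2 fold change of 1.15 (limma adjusted p = 0.0260), beside 8.25% of tested genes (4.47% higher, 3.78% lower).

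**Figure D3:**
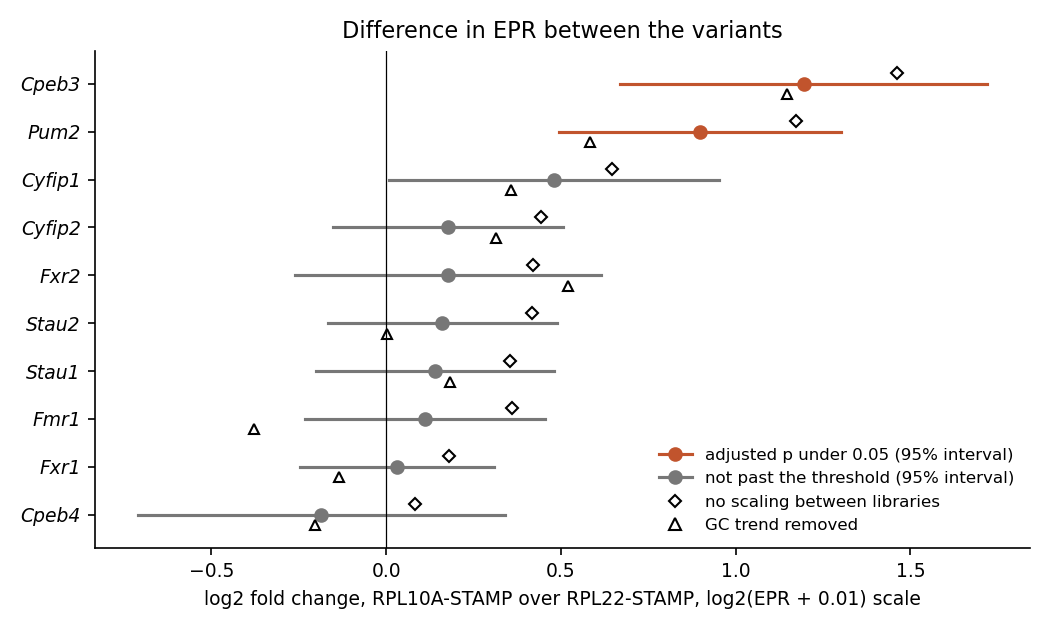
Log2 fold change between the variants, RPL10A-STAMP over RPL22-STAMP (x axis, limma, log2(EPR + 0.01)), for each of the 10 genes, as circles with 95% confidence intervals, orange for an adjusted p under 0.05, with diamonds for no scaling and triangles for the GC trend removed. *Cpeb3* and *Pum2* lie at 1.19 and 0.90, and the intervals of the others except *Cyfip1* include 0.

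Most of these genes were edited above the typical gene. In 45 of 60 combinations of gene and library the EPR exceeded the library's median over tested genes. *Fxr1* was below that median in all 6 libraries, at 0.475 to 0.689 times it, and *Cpeb4* was above it in all 6, at 1.69 to 3.52 times. With RPL10A-STAMP, *Cpeb3* lay at percentiles 88.1 to 91.3 of edited genes and *Pum2* at 83.1 to 91.3. With RPL22-STAMP the same genes lay at 20.7 to 72.0 and 50.3 to 67.4. Reads of a gene grow with transcript length as its edits do, so EPR was compared between genes without further division by length. The sequence around Cs also differs between genes, and EPR was not adjusted for it. In the transcript with the longest coding sequence, Cs between A or U ran from 53.9 per kb in *Fxr2* to 73.9 in *Pum2*. Their median over tested genes was 69.6 per kb.

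In RPL10A-STAMP, mean EPR fell in the order *Cpeb3*, *Pum2*, *Cpeb4*, *Cyfip2*, *Fxr2*, *Stau2*, *Fmr1*, *Cyfip1*, *Stau1*, *Fxr1*. Neighbours in this order overlapped between libraries except *Fmr1* with *Cyfip1* and *Stau1* with *Fxr1*. In RPL22-STAMP the order was *Cpeb4*, *Cyfip2*, *Fxr2*, *Fmr1*, *Stau2*, *Pum2*, *Cpeb3*, *Stau1*, *Cyfip1*, *Fxr1*, and neighbours overlapped except *Stau1* with *Cyfip1*. *Cpeb3* moved from first place to seventh by its mean. The median coefficient of variation between the 3 libraries of RPL10A-STAMP was 22.5% over the 10 genes, and between those of RPL22-STAMP it was 20.3%, against 28.0% and 32.1% over tested genes. *Cpeb4* with RPL22-STAMP varied most, at 59.2%, and *Fxr1* and *Stau1* varied least with RPL10A-STAMP.

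**Figure D4:**
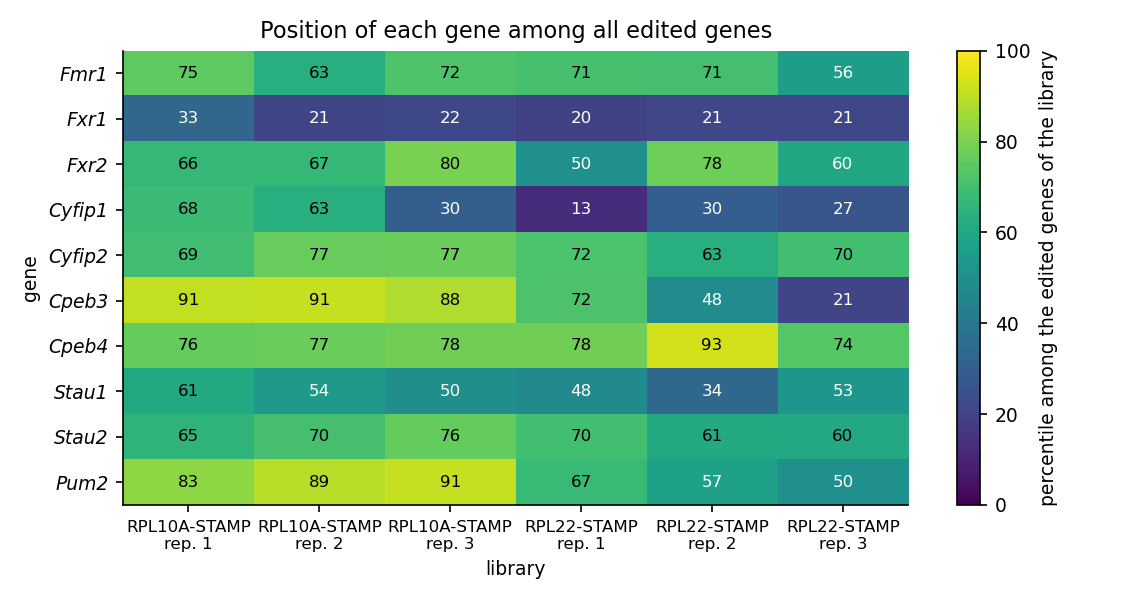
Percentile of each of the 10 genes (rows) among the edited genes of each library (columns, 3 per variant), as colour from 0 to 100 and as a rounded number in the cell. *Cpeb3* falls from 88.1 to 91.3 with RPL10A-STAMP to 20.7 to 72.0 with RPL22-STAMP, whereas *Fxr1* stays between 19.7 and 32.8.

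Sequence features the choice of genes did not use were uneven among the 10. In the transcript with the longest coding sequence, GC content ran from 36.9% in *Fmr1* to 58.5% in *Fxr2*, and *Pum2*, at 41.6%, also lay below the lower quartile of tested genes, 44.5%. In the longest coding transcript it was 39.2% for *Fmr1*, 39.3% for *Cpeb4*, 39.4% for *Fxr1*, 42.2% for *Pum2* and 42.8% for *Stau2*. The others held at least 46.1%. Over 8039 tested genes with a known transcript, log2 fold change and GC content had a Spearman correlation of -0.467, and over the 10 genes of 0.0788. These are descriptions over genes that share the same 6 libraries. No gene of the 10 shares exon bases with another gene on its own strand. For each, the transcript with the longest coding sequence has no exact copy of 50 or more bases elsewhere in the nuclear genome. Exon bases outside that transcript were not searched for copies. For *Cpeb4* it holds 2312 bases, against 6369 exon bases of the gene. The antisense overlap was 2.72% of exon bases for *Fxr1* and 1.56% for *Cpeb3*.

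Of the 10 genes, 9 have a 3′ UTR of at least 1000 bases, all but *Fxr2*, and the first 1000 bases of the longest one were searched on the transcript strand only. TGTANATA, where N is any base, was found in *Pum2* and *Cyfip1*, 2 of 9, and in 19.2% of 5410 tested genes with a 3′ UTR this long. TTTTAT was found in *Fmr1*, *Cpeb3*, *Cpeb4*, *Stau2* and *Pum2*, 5 of 9, against 54.1%. The motifs can share at most 1 base, and no window printed above holds both. A match describes the sequence and does not show that a protein binds there.

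The relatives and partners of these genes were read from lists chosen by function, with earlier results of these data known. Among 15 further genes for CPEB relatives, Pumilio and CCR4-NOT cofactors, a repressor that binds eIF4E and poly(A) tail enzymes, 14 were tested and 6 passed in limma, all higher with RPL10A-STAMP, with a median log2 fold change of 0.55, midway between genes at 0.28 and 0.81. The largest log2 fold changes were those of *Cnot6l*, a CCR4-type deadenylase (1.66, adjusted p = 0.00678), *Cnot2*, a structural subunit of CCR4-NOT (1.48, adjusted p = 0.00444), *Parn*, a poly(A)-specific ribonuclease (1.38, adjusted p = 0.00455), and *Cnot1*, the scaffold of CCR4-NOT (1.36, adjusted p = 0.00447). *Cnot2* had an EPR of 0.0786 ± 0.0208 (SD, n = 3) against 0.0160 ± 0.00548 (SD, n = 3), and its RPL10A-STAMP mean exceeded that of each of the 10 genes. Across the other settings 3 to 7 of the 14 or 15 tested passed, and *Cnot1*, *Cnot2* and *Parn* passed in all of them.

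Of 8 WAVE complex genes, in which CYFIP1 and CYFIP2 are subunits, 7 were tested and 2 passed, *Nckap1* (0.60, limma adjusted p = 0.0231) and *Abi1* (0.53, limma adjusted p = 0.0472), both higher with RPL10A-STAMP. Both calls were lost without RPL10A-STAMP replicate 1, 2 or 3, without RPL22-STAMP replicate 2 or 3, with the replicate number as a block, with no filter, and with the GC trend removed. Of 25 genes of transport granules and microRNA silencing, 21 were tested and 3 passed, all higher with RPL10A-STAMP: *Nufip2*, an FMRP-interacting protein (0.87, limma adjusted p = 0.0180), *Syncrip*, an hnRNP of mRNA granules (0.75, adjusted p = 0.0153), and *Ddx6*, a helicase of P-bodies (0.60, adjusted p = 0.0387). The count was 0 without RPL10A-STAMP replicate 2, 0 without RPL10A-STAMP replicate 3 and 1 (*Syncrip*) without RPL22-STAMP replicate 3, with the replicate number as a block or with no filter. It was also 0 with the block and the GC trend removed together and with the GC trend of the longest coding transcript removed. With the length trend removed, 2 passed higher with RPL10A-STAMP and *Ago2*, a core protein of microRNA silencing, passed higher with RPL22-STAMP. *Igf2bp1* and *Igf2bp3* were listed at 0 in all libraries.

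Of 10 mRNAs known as FMRP targets, all tested, 2 passed in limma, both higher with RPL22-STAMP: *Shank1*, a postsynaptic scaffold (-1.19, adjusted p = 0.00507), and *Camk2a*, a subunit of a synaptic kinase (-0.79, adjusted p = 0.0127). *Shank1* had an EPR of 0.0106, 0.0181 and 0.0221 with RPL10A-STAMP and of 0.0296, 0.0494 and 0.0421 with RPL22-STAMP in replicates 1, 2 and 3, without overlap. The median log2 fold change of the list was -0.10 on the common scale, 0.086 without scaling and 0.20 with the GC trend removed, and in both of the latter *Shank1* alone passed. It was also the only target to pass without RPL10A-STAMP replicate 2 or 3, and none passed with the replicate block and the GC trend removed together. The percent of tested genes passing was 42.9 for the poly(A) list, 28.6 for the WAVE list, 14.3 for the granule list and 20 for the FMRP targets, beside 14.3 over all tested genes. Because earlier results were known when the lists were chosen, these shares describe the lists and test nothing.

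**Figure D5:**
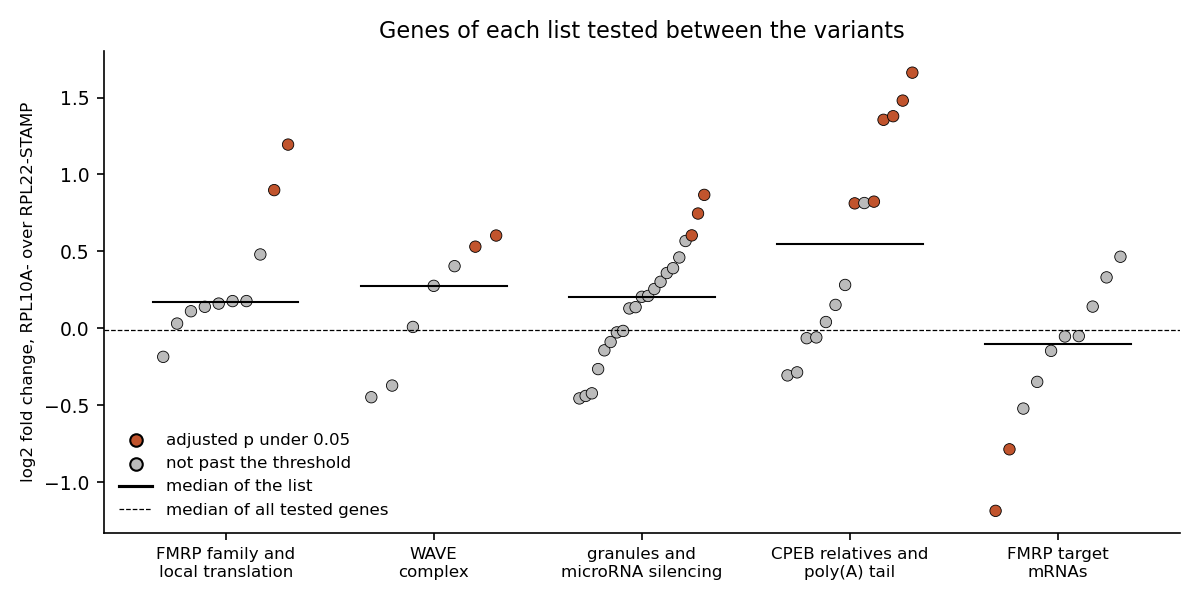
Log2 fold change between the variants (y axis, log2(scaled EPR + 0.01), positive where RPL10A-STAMP is higher) for the 10 genes and 4 related lists, with 1 point per tested gene, orange where the limma adjusted p was under 0.05, a line at each list's median and a dashed line at that of all tested genes. The poly(A) list has 6 orange points above 0 and the FMRP target list has 2 below 0.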

How the data were processed

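From single-end reads, the authors removed adapters with cutadapt 1.18, aligned to mm10 with STAR 2.5.2b allowing up to 10 locations, found C-to-U edits with SAILOR and obtained gene counts from featureCounts 1.5.3. For each library they deposited a ratio, edits over reads (EPR), for 31053 genes, with no normalization across libraries. The annotation is not given in the sources used here. The methods state a single sequencing depth for all samples, and edits and reads per gene were not used here, so the precision from depth is unknown.

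Symbols and coordinates came from GENCODE mouse release 21, which holds 31011 of the gene identifiers and lacks 42. Genes edited in all 6 libraries were tested with limma 3.58.1 in R 4.3.3 (trend of variance with mean, Benjamini-Hochberg over 8046 genes, threshold 0.05), with no covariates. The procedure was tested on simulated data. EPR as deposited and paralog ratios were compared with two-sided exact permutation tests over 20 labelings. GC and length trends were removed with splines of 4 degrees of freedom. Copies were searched with BLAST 2.17.0. Other steps ran in Python 3.11.15 with scipy 1.17.1, pandas 2.3.3, numpy 2.4.6 and, for figures, matplotlib 3.10.9.

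The text names the 10 genes, the 3 genes closest to *Fmr1* and, per pathway list, up to 4 genes that passed, by size of log2 fold change. Cell type markers and list genes at 0, *Syn1*, *Map2*, *Slc17a7*, *Tubb3*, *Rbfox3*, *Ago2* and antisense neighbours are named in addition, chosen after their values were seen. The members and lists were chosen with earlier results of these data known. Alternatives covered the pseudocount, the scaling, the filter, the replicate number as a block, GC and length trends, and each library left out in turn. RPS2-STAMP and uninfected cells were not analysed here, so no background of C-to-U mismatches from cells without a fusion was subtracted from EPR here. A further paralog ratio and 1 gene in each of 2 lists are not reported here, and list counts, list medians and the adjustment over ratios leave them out.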

Additional observations from a re-analysis of the deposited data

How the results depend on the processing

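The number of tested genes that passed, 1149, was 754 with genes edited in at least 3 libraries, 569 with no filter, 603 with the replicate number as a block, 663 with the GC trend removed, 227 with the block and the GC trend removed, 680 with the GC trend of the longest coding transcript removed (chosen after seeing the data), and 369 to 873 with 1 library left out. Of the 10 genes, 2 passed, against 0 with no filter, 1 with the block (*Cpeb3*), 1 with either GC trend removed (*Cpeb3*), 0 with the block and the GC trend removed, and 0 to 2 with 1 library left out. On the common scale, deviations of same-numbered libraries from their group means correlated at 0.0437, 0.0464 and -0.0055 over genes. Scaling takes out only a factor common to all genes of a library, so effects on single genes remain in these correlations, which were small. Whether same-numbered libraries shared a culture is not given by the labels and was not tested. The sign of the log2 fold change turned for *Fmr1* with the GC trend removed (-0.38, and -0.38 with the block), for *Fxr1* likewise (-0.13 and -0.13) and without RPL10A-STAMP replicate 1 (-0.041, with leave-one-out values from -0.041 to 0.070), for *Cpeb4* without scaling (0.084) and without RPL22-STAMP replicate 2 (0.066, with leave-one-out values from -0.33 to 0.066), and with the GC trend of the longest coding transcript for *Fmr1* (-0.30), *Fxr1* (-0.37) and *Stau2* (-0.093). None of these values passed the test. The log2 difference of the paralog ratio moved by more than its pooled SD in these cases. With the GC trend removed it came to 0.38 for *Fxr1* over *Fmr1* and 1.51 for *Fxr2* over *Fmr1*, and with the pseudocount to -1.38 for *Cpeb4* over *Cpeb3*. For *Cyfip2* over *Cyfip1* it came to -0.22 with the GC trend removed, a change within the pooled SD of 0.65. The cause of these changes was not tested. The adjusted p over 17 alternatives ranged from 0.00617 to 0.0604 for *Cpeb3* and from 0.0176 to 0.142 for *Pum2* (limma).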
